A study of Mus musculus with 4 samples.

Results

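The Itm2 genes of the mouse are Itm2a, Itm2b and Itm2c, which encode integral membrane proteins. Their expression was compared between sorted cells of fetal liver and of adult bone marrow. The members were taken by gene symbol from the authors' deposited table of the comparison, where 3 of 33465 gene labels belong to the family. The family was chosen because of its difference between these groups, so the values of its members are given as a description with no test. The adjusted p-values printed for members are those of the authors' deposited table. Itm2a and Itm2b were far more abundant in fetal liver than in adult bone marrow, and Itm2c had the lowest level of the 3 in fetal liver and a smaller ratio.

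Itm2 proteins are type II membrane proteins of the secretory pathway whose luminal part holds a BRICHOS domain, a fold that acts as a chaperone for aggregation-prone segments. ITM2B, also called BRI2, is cut by the proprotein convertase furin, its BRICHOS domain is shed by ADAM10, and the remaining stub is cut in the membrane by signal peptide peptidase-like proteases. Mutations of human ITM2B cause familial British and Danish dementia, and human ITM2B and ITM2C bind the amyloid precursor protein and lower its processing. Itm2a was first described in the mouse as a gene of cartilage and bone differentiation and is induced in activated T cells. In the fetal liver, blood stem cells expand before birth, and the bone marrow is their main site in the adult.

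The fetal liver group held 2 libraries with replicate numbers 1 and 2, and the adult bone marrow group held 2 libraries with replicate numbers 2 and 3. All came from C57BL/6 mice, a common inbred strain, as primary cells sorted by flow cytometry, with no genotype or treatment named for either group. The sources used here name neither sort markers nor ages beyond fetal and adult, and do not say whether each library came from its own animals, so the spread between libraries may be technical. The cDNA was made with a SMARTer kit for very small amounts of RNA, in which small samples are amplified before sequencing.

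The authors' deposited table gives a mean of normalized reads per group, and reads of each library were recovered from those means. The libraries could not be tied to replicate numbers and are called deeper and shallower. Over features with means up to 10000, the fetal liver libraries held 2546089 and 868246 recovered reads, and the adult bone marrow libraries 858720 and 223361. Left out of these counts were 23 features with a fetal liver mean above 10000 and 20 with an adult bone marrow mean above it. The counts are therefore not the full depth of the libraries. A single read counted as 0.379 and 1.19 normalized reads in the deeper and shallower fetal liver libraries, and as 0.676 and 2.86 in the deeper and shallower adult bone marrow libraries. The gene labels of the table stand above their own features, closed up over features without a label, and were placed again with a probability for each feature. A gene value is printed where that probability was at least 0.95. The placement used gene structure and level, so the level of a gene is not independent of its placement. With a member's own score left out, the same feature was found with a probability of 0.962 for Itm2a, 0.973 for Itm2b and 1 for Itm2c. The share of unlabelled features at each level and the identifier order among ties were still used. That check is therefore not free of level.

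Itm2a was the most abundant member in fetal liver. Its label (ENSMUSG00000031239, chromosome X) was placed with a probability of 0.995. It had 1906 and 3932 normalized reads in the deeper and shallower fetal liver libraries, against 13.5 and 54.3 in the deeper and shallower adult bone marrow libraries. These values rest on 5030 and 3307 reads in fetal liver and on 20 and 19 reads in adult bone marrow. Both fetal liver libraries lay above both adult bone marrow libraries, and even the closest pair, the deeper fetal liver and the shallower adult bone marrow library, differed 35.1-fold. The means in the authors' deposited table were 2919 in fetal liver and 33.9 in adult bone marrow, a ratio of 86.1 with an authors' adjusted p-value of 0.000642. The ratio in the authors' deposited table was exceeded by 18 of 30884 features with reads in both groups. Over the 27 of them with a mean of both groups within 2-fold of that of Itm2a, the median ratio was 13.9. Of these 27 features, 88.9% had a lower ratio than Itm2a. For Itm2b the median was 8.72 over 276 features of like mean, with 89.1% below its ratio. For Itm2c it was 0.878 over 10833 features, with 90.3% below.

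Itm2b had 670 and 709 normalized reads in the deeper and shallower fetal liver libraries, against 11.5 and 48.6 in the deeper and shallower adult bone marrow libraries. Its label (ENSMUSG00000022108, chromosome 14) was placed with a probability of 0.951, close to the limit used, and of 0.738 with a shorter training of the score. These values rest on 1769 and 596 reads in fetal liver and on 17 and 17 reads in adult bone marrow. The fetal liver libraries were close to each other and lay above both adult bone marrow libraries. In the authors' deposited table the means were 689 in fetal liver and 30.05 in adult bone marrow, a ratio of 22.9 with an authors' adjusted p-value of 0.00285. The remaining probability of the Itm2b label, 0.0491, lay on the feature next to it, which had means of 128 in fetal liver and 17.9 in adult bone marrow, a ratio of 7.17 with an adjusted p-value of 0.00284 in the authors' deposited table. Both candidate features were called higher, and the size of the ratio differed. Labels keep the p-value order, so neighbouring features have near-equal adjusted p-values, and 1467 features were called higher against 46 lower. The shared call and direction therefore lend the Itm2b values no weight.

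Itm2c was far below both relatives in fetal liver. It had 38.7 and 26.2 normalized reads in the deeper and shallower fetal liver libraries, against 11.5 and 11.4 in the deeper and shallower adult bone marrow libraries. Its label (ENSMUSG00000026223, chromosome 1) was placed with a probability of 1, and its values rest on 102 and 22 reads in fetal liver and on 17 and 4 reads in adult bone marrow. The fetal liver libraries lay above the adult bone marrow libraries, but the exact 95% Poisson intervals of the shallower libraries, 16.4 to 39.6 in fetal liver and 3.12 to 29.3 in adult bone marrow, overlapped. The means in the authors' deposited table were 32.4 in fetal liver and 11.5 in adult bone marrow, a ratio of 2.83 with an authors' adjusted p-value of 0.604, so Itm2c was not called. Intervals of this kind cover counting error only, and amplified reads without molecular identifiers are not independent molecules.

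**Figure D1:**
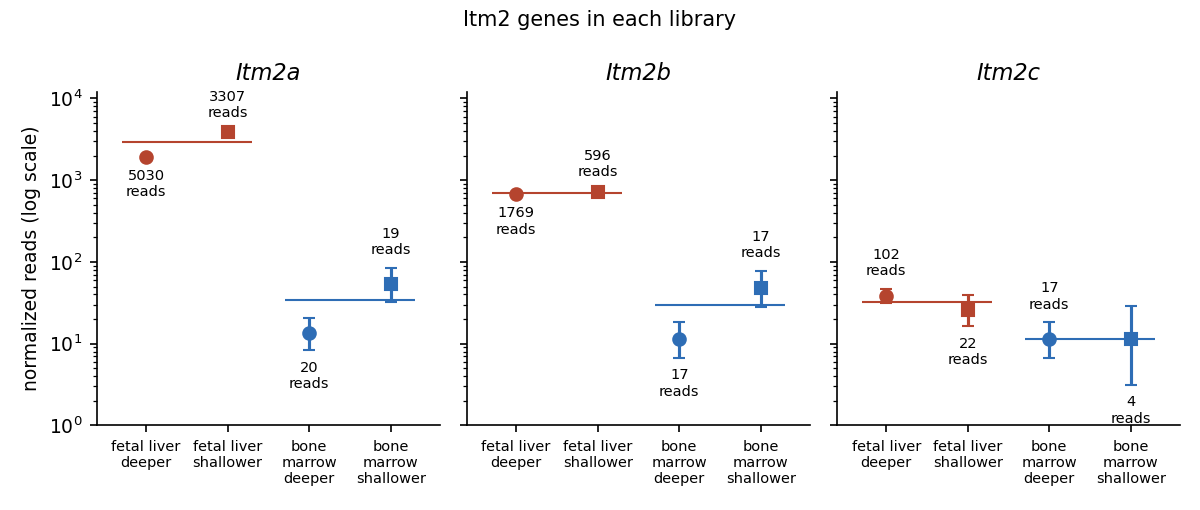
Normalized reads (log scale) of Itm2a, Itm2b and Itm2c in the deeper (circles) and shallower (squares) library of fetal liver (left, red) and adult bone marrow (right, blue), with exact 95% Poisson intervals, whole reads beside each point and group means as lines. The fetal liver points lie above the bone marrow points for each gene, at 1906 and 3932 in fetal liver against 13.5 and 54.3 in bone marrow for Itm2a, and at 38.7 and 26.2 in fetal liver against 11.5 and 11.4 in bone marrow for Itm2c.

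Of the 3 members, 2 were called higher in fetal liver and 0 lower at an authors' adjusted p-value under 0.05 in the authors' deposited table. Over all 35605 tested features, 4.12% were called higher and 0.129% lower. Because the members were chosen on this contrast, nothing is read from that count. All 3 members had both fetal liver libraries above both adult bone marrow libraries, as did 37.3% of the 16501 features that had recovered reads and a mean of 10 or more, while 26.4% had both below. On the log2(normalized reads + 1) scale, limma over these features estimated differences of 6.59 ± 0.67 for Itm2a, 4.79 ± 0.55 for Itm2b and 1.40 ± 0.54 for Itm2c (SE, n = 2 libraries in each group). In bulk samples, a larger share of expressing cells and more RNA per cell cannot be told apart.

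**Figure D2:**
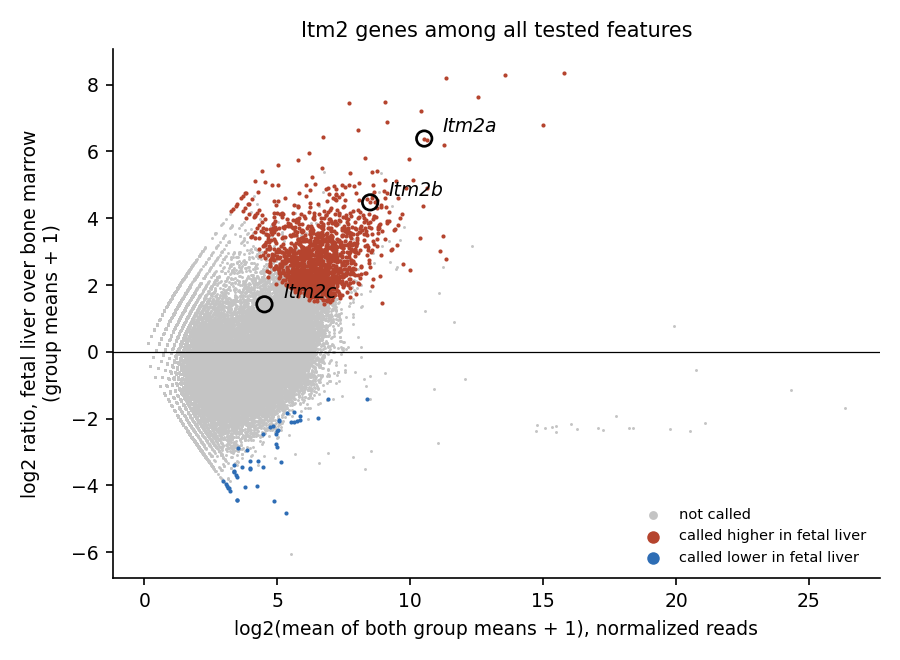
Log2 ratio of fetal liver over adult bone marrow (group means + 1) against log2 of the overall mean of normalized reads + 1 for 35605 tested features, with features called higher in fetal liver in red and lower in blue at the authors' adjusted p-value under 0.05. Itm2a and Itm2b (circled) lie among the called features, and Itm2c lies among those not called.

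Per length of exon, the order of the members was Itm2a, Itm2b, Itm2c in the means of both groups. The exons of all transcripts, merged, span 1744 bases in Itm2a, 2732 in Itm2b and 2491 in Itm2c, in the GENCODE M21 annotation. In fetal liver the level was 1674 normalized reads per kb of exon for Itm2a, 252 for Itm2b and 13.01 for Itm2c. Itm2a thus ranked 10 among 15202 placed protein-coding genes in fetal liver, Itm2b ranked 62 and Itm2c ranked 3201. In adult bone marrow the level was 19.4 normalized reads per kb for Itm2a, 10.998 for Itm2b and 4.601 for Itm2c, with ranks of 191, 1517 and 9843. A level per length assumes even coverage of the transcript, which the authors' deposited table does not show.

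The order held in each fetal liver library and not in each adult bone marrow library. Itm2a was 4.45 and 8.69 times Itm2b per kb in the deeper and shallower fetal liver libraries, and Itm2b was 15.8 and 24.7 times Itm2c. In the shallower adult bone marrow library the levels per kb were 31.2 for Itm2a, 17.8 for Itm2b and 4.59 for Itm2c. In the deeper adult bone marrow library they were 7.75 for Itm2a, 4.20 for Itm2b and 4.61 for Itm2c, so that Itm2b and Itm2c, with 17 reads each, changed places. Itm2a made up 86.3% of the family's summed level per kb in fetal liver, against 55.5% in adult bone marrow. The share of Itm2c was 0.671% in fetal liver, against 13.1% in adult bone marrow.

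**Figure D3:**
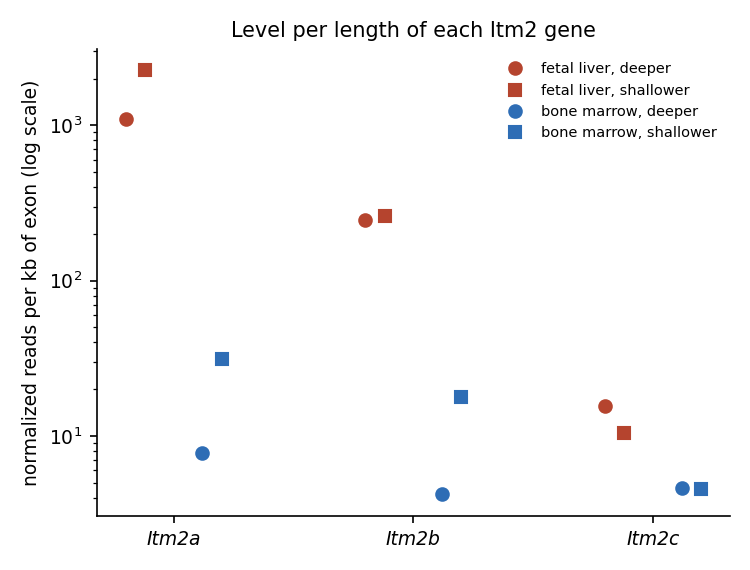
Normalized reads per kb of exon (log scale) of each Itm2 gene in the deeper (circles) and shallower (squares) libraries of fetal liver (red, left of each pair) and adult bone marrow (blue). Itm2a, Itm2b and Itm2c are ordered alike in both fetal liver libraries, and Itm2b (4.20) lies under Itm2c (4.61) in the deeper bone marrow library.

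The libraries of a group differed for Itm2a and Itm2b mainly within adult bone marrow. The shallower adult bone marrow library had 4.02 times the normalized reads of the deeper one for Itm2a and 4.23 times for Itm2b, against 0.996 times for Itm2c. A difference that large was rare, since 98.5% of 11513 features within 2-fold of the bone marrow mean of Itm2a, and 98.6% of 12241 such features for Itm2b, differed less between those libraries. Between the fetal liver libraries, the shallower had 2.06 times the normalized reads of the deeper for Itm2a, 1.06 times for Itm2b and 0.677 times for Itm2c.

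The difference between the adult bone marrow libraries was larger in features with a fetal liver mean of 100 or more, over features of like bone marrow level, a description whose ranges were chosen after the values were seen. Among features with an adult bone marrow mean of 10 to 50, the median log2 ratio of the shallower over the deeper adult bone marrow library (normalized reads + 1) was 0.07 over 3478 features with a fetal liver mean under 10. It was -0.03 over 5432 features with a fetal liver mean of 10 to 30, and 0.08 over 4494 features with a fetal liver mean of 30 to 100, where Itm2c lay at -0.01. It was 0.45 over 1068 features with a fetal liver mean of 100 to 300. It was 1.02 over 117 features with a fetal liver mean of 300 to 700, where Itm2b lay at 1.99, and 1.15 over 27 features with a fetal liver mean of 700 or more, where Itm2a lay at 1.93. The upper quartiles of those ranges were 1.499 and 1.67, so Itm2b and Itm2a lay above them. What moves the shallower adult bone marrow library was not tested.

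**Figure D4:**
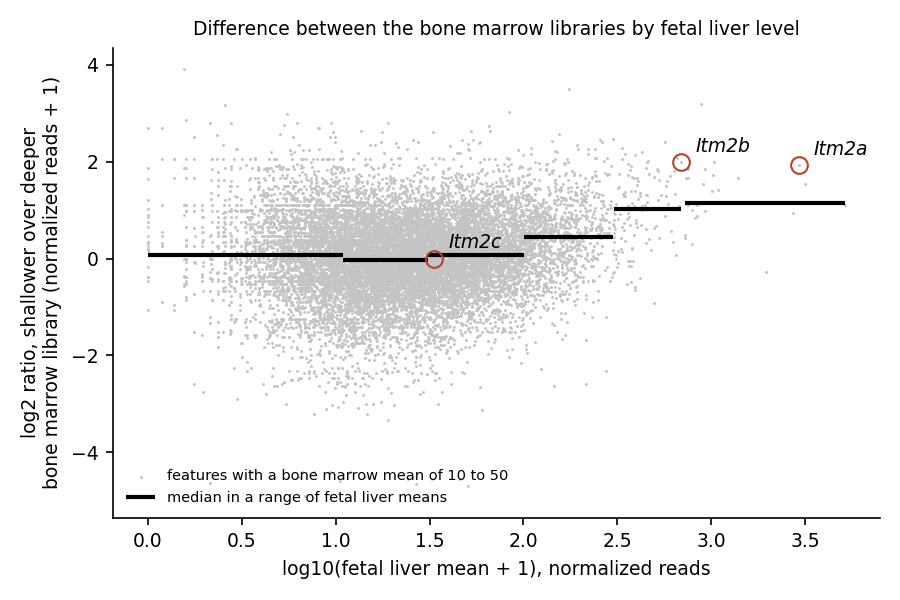
Log2 ratio of the shallower over the deeper adult bone marrow library (normalized reads + 1) against log10 of the fetal liver mean + 1, for features with an adult bone marrow mean of 10 to 50, with the median in each range of fetal liver means as a black line and the Itm2 genes circled. The median is 0.07 at the lowest fetal liver means and 1.15 at the highest, and Itm2a (1.93) and Itm2b (1.99) lie above it.

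Without the deeper adult bone marrow library the fetal liver over bone marrow ratio of the means was 53.7 for Itm2a and 14.2 for Itm2b. Without the shallower one it was 216 for Itm2a and 60.03 for Itm2b, and for Itm2c it stayed at 2.82 to 2.83 either way. Without the deeper fetal liver library the ratio was 116 for Itm2a, and without the shallower one it was 56.2.

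The 250 bases upstream of the annotated starts are given for the members because 2 of them, Itm2a and Itm2c, hold the same motif at the same distance from the start. The sequences are those of RefSeq on GRCm38.p6, which is not the build of the authors' reads, and all 3 members matched by symbol. Capitals mark each match, on either strand, to TGACG (the core of the cyclic AMP response element, bound by CREB), GGGCGG (the GC box, bound by Sp1), TATAAA (the TATA box), CCAAT (the CCAAT box) or GATAA (the core bound by GATA factors). The sequences read 5′ to 3′ on the strand of the gene and end at the base before the start. They lie at chrX:107403361-107403610 (minus strand) for Itm2a, chr14:73385290-73385539 (minus strand) for Itm2b and chr1:85894260-85894509 (plus strand) for Itm2c.
Itm2a: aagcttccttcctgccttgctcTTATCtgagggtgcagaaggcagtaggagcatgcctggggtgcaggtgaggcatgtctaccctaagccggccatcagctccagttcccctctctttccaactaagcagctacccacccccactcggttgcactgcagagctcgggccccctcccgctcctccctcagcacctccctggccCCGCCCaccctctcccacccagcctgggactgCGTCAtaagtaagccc
Itm2b: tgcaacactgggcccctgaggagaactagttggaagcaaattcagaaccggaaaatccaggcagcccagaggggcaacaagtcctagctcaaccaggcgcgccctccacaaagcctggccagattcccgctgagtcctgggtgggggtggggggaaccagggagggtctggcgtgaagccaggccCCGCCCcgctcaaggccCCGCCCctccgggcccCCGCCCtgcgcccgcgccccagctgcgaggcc
Itm2c: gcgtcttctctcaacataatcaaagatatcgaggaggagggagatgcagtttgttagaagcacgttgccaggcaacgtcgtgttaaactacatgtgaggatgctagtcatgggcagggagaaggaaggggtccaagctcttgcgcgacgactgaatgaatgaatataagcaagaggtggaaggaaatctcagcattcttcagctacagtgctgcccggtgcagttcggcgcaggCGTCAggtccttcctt

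TGACG was found on the opposite strand, as CGTCA, 16 to 12 bases before the start of Itm2a and likewise 16 to 12 bases before that of Itm2c, and not upstream of Itm2b. Of 32841 RefSeq promoters of the same length, 17.8% hold TGACG on either strand. GGGCGG had 3 matches upstream of Itm2b, 1 upstream of Itm2a and 0 upstream of Itm2c, and 32.7% of promoters hold it. GATAA had 1 match, upstream of Itm2a, and 22.6% of promoters hold it. TATAAA (12.4% of promoters) and CCAAT (33.9%) had 0 matches in these windows. No motif searched overlapped another in these windows. The GC content was 62.8% for Itm2a, 68.8% for Itm2b and 50.8% for Itm2c, against a median of 52.4% over all these promoters. The motif shared by Itm2a and Itm2c did not set apart the members that were called from the one that was not.

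By the distance between profiles over the 4 libraries (log2(normalized reads + 1), centred per gene), Itm2a and Itm2b were nearer to each other than to Itm2c. Because the members were chosen on the group contrast, which these distances mostly reflect, nothing is read from this order. The 5 genes nearest to Itm2b all lay within 0.299 of it, far nearer than Itm2a. Between Itm2a and Itm2b the distance was 1.93, and 21 of 14333 other placed genes lay nearer to Itm2a. Between Itm2a and Itm2c it was 5.49, with 2941 genes nearer to Itm2a, and between Itm2b and Itm2c it was 3.70, with 2764 genes nearer to Itm2b. The 5 genes nearest to Itm2a were Nrk, which encodes a protein kinase (distance 1.07), the predicted gene Gm20721 (1.17), Fth1, the ferritin heavy chain (1.31), the predicted gene Gm15427 (1.46) and Cdkn1c, an imprinted inhibitor of cell division (1.48). Nrk had 541 and 926 normalized reads in the deeper and shallower fetal liver libraries, against 7.43 and 25.7 in the deeper and shallower adult bone marrow libraries. Cdkn1c had 1399 and 1375 in fetal liver, against 18.2 and 60.05 in adult bone marrow. Like Itm2a, both were higher in the shallower than in the deeper adult bone marrow library.

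The 5 genes nearest to Itm2b were Rps4x and Rplp0, which encode ribosomal proteins (distances 0.162 and 0.221), Pfn1, the actin-binding profilin (0.177), Gm10076 (0.264) and Rps27rt (0.299). Rps4x had 590 and 671 normalized reads in the deeper and shallower fetal liver libraries, against 10.8 and 40.0 in the deeper and shallower adult bone marrow libraries. Ribosomal protein genes and Fth1 have near-identical copies in the genome, and the sources used here do not say how the authors counted reads that match several copies. Among the genes nearest to Itm2c were Smim19 (0.0425), Ezh2, the histone methyltransferase of Polycomb repression (0.0791), B630005N14Rik (0.0797) and Sae1, a subunit of the enzyme that activates SUMO (0.0934). Smim19 had 47.4 and 33.3 normalized reads in the deeper and shallower fetal liver libraries, against 14.2 and 14.3 in the deeper and shallower adult bone marrow libraries. With 4 libraries in 2 groups, these distances mostly reflect the size of the group difference and the split between the bone marrow libraries.

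Among listed proteases that cut Itm2 proteins or are relatives of those, Adam10, the sheddase of the BRICHOS domain, was the one called member. Of 13 listed genes, 1 (7.69%) was called higher and 0 lower in the authors' deposited table, against 4.12% called higher and 0.129% lower over all features. Of those 35605 features, 16526 had a mean of at least 10, as did all 12 placed genes. The 12 placed genes had a median log2 ratio of -0.27 (group means + 1), against -0.28 over all tested features and 0.11 over those with a mean of at least 10. Adam10 had 128 and 122 normalized reads in the deeper and shallower fetal liver libraries, against 25.7 and 51.5 in the deeper and shallower adult bone marrow libraries. Its ratio was 3.25 with an adjusted p-value of 0.0218 in the authors' deposited table, 2.43 without the deeper and 4.88 without the shallower adult bone marrow library. Furin, which cuts Itm2b at its C-terminal end, had 54.9 and 33.3 normalized reads in the deeper and shallower fetal liver libraries, against 51.3 and 117 in the deeper and shallower adult bone marrow libraries, with overlapping groups. Adam17, a related sheddase, had a ratio of 1.04 and H13, the signal peptide peptidase, one of 1.61 in the authors' deposited table, both short of a call. Of the signal peptide peptidase-like proteases, named after their values were seen, Sppl2b had a ratio of 0.847 and Sppl3 one of 3.27 (authors' adjusted p-value 0.272). Neither was called, and Sppl2a could not be placed.

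The amyloid precursor gene App was higher in fetal liver. It had 238 and 396 normalized reads in the deeper and shallower fetal liver libraries, against 25.7 and 45.7 in the deeper and shallower adult bone marrow libraries. The groups did not overlap, and the ratio in the authors' deposited table was 8.88 with an adjusted p-value of 0.000155. App was the 1 gene called higher among the 14 listed genes of its pathway, with 0 called lower, a share of 7.14% against 4.12% called higher over all features. Of those 35605 features, 16526 had a mean of at least 10, as did all 10 placed genes, so the shares are over unlike levels. The 10 placed genes had a median log2 ratio of 0.91, against 0.11 over features with a mean of 10 or more. Its paralog Aplp2 had 291 and 195 normalized reads in the deeper and shallower fetal liver libraries, against 30.4 and 80.1 in the deeper and shallower adult bone marrow libraries, a ratio of 4.403 with an adjusted p-value of 0.0573 in the authors' deposited table. For Aplp2 the ratio against the shallower adult bone marrow library alone was 3.04, and that against the deeper one alone was 7.999. Bace1, the beta-secretase, had a ratio of 4.02 (adjusted p-value 0.291) and Ncstn, the nicastrin subunit of gamma-secretase, one of 4.29 (0.0702) in the authors' deposited table, so neither was called. Limma called 4 of the 10 placed genes higher and 0 lower, where it called 19.2% of all its features higher and 2.87% lower.

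ITM2A of human cells binds the vacuolar proton pump, the V-ATPase that acidifies lysosomes. Of 18 listed subunit genes, 3 were called higher in fetal liver and 0 lower in the authors' deposited table. Over all 35605 features, 4.12% were called higher and 0.129% lower. Of those features, 16526 had a mean of at least 10, as did all 16 placed subunit genes. Atp6v1f, a subunit of the cytosolic part, had 114 and 63.0 normalized reads in the deeper and shallower fetal liver libraries, against 9.46 and 11.4 in the deeper and shallower adult bone marrow libraries. Its ratio was 8.46 with an adjusted p-value of 0.000779 in the authors' deposited table. Of the membrane part, Atp6v0e had a ratio of 5.99 (adjusted p-value 0.00285) and Atp6v0d1 one of 4.78 (0.00204) in the authors' deposited table. Of the subunits that were not called, Atp6v1g1 had a ratio of 6.08, Atp6v1b2 one of 3.38 and Atp6ap1 one of 3.804 in the authors' deposited table. Without the shallower adult bone marrow library the ratio was 14.9 for Atp6v1g1 and 7.94 for Atp6ap1, and without the deeper one it was 3.82 for Atp6v1g1 and 2.50 for Atp6ap1. In 13 of the 16 placed genes both fetal liver libraries lay above both adult bone marrow libraries, and in 1 both lay below, where 37.3% of features with a mean of 10 or more lay above and 26.4% below. The median log2 ratio of the placed genes was 1.73, against 0.11 over features with a mean of 10 or more. Limma called 9 of 16 higher and 0 lower, where it called 19.2% of its features higher and 2.87% lower.

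The other genes with a BRICHOS domain were low in both groups. Of 7 listed genes, 4 were placed, none of these had a mean of at least 10, and 0 were called in either direction in the authors' deposited table. At an unadjusted p under 0.05, the placed genes of this list had 0 higher and 0 lower. None of them entered the limma fit. Bricd5, a little-studied member, had 7.33 normalized reads in fetal liver and 12.1 in adult bone marrow in the authors' deposited table. Gkn1, a gastrokine of the stomach, had 3.73 in fetal liver and 12.9 in adult bone marrow, and Lect1, which encodes the cartilage protein chondromodulin, had 0.595 in fetal liver and 8.86 in adult bone marrow in the authors' deposited table. Of the genes with a BRICHOS domain that could be placed, the Itm2 genes were those with a mean of at least 10. Across the 4 lists, 5 of 52 genes were called higher and 0 lower in the authors' deposited table. At an unadjusted p under 0.05, 16 of 42 placed genes were higher and 0 lower, where 3095 of all 35605 features were higher and 853 lower. Limma, which called 19.2% of its features higher and 2.87% lower, called 16 genes higher and 0 lower, counting 1 gene without a fixed feature whose probability on called features reached 0.95.

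**Figure D5:**
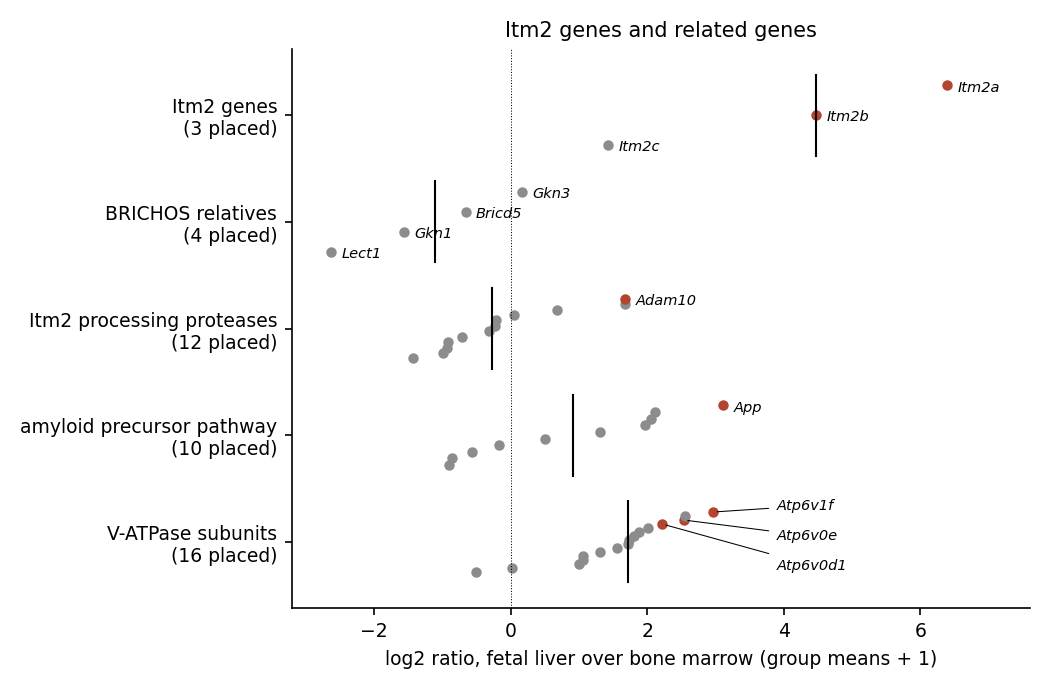
Log2 ratio of fetal liver over adult bone marrow (group means + 1) of the Itm2 genes and of the placed genes of 4 related lists, with genes called higher in the authors' deposited table in red, others in grey and the list median as a bar. Itm2a and Itm2b lie to the right of every gene of the 4 lists, and the other genes with a BRICHOS domain have the lowest list median, -1.11.

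Markers of several cell types moved with the groups, and their part in the Itm2 values was not tested. Of 8 mural and mesenchymal markers, 3 (Rgs5, Cxcl12 and Pdgfrb, named because they were called) were higher in the authors' deposited table, where 4.12% of all features were called higher. The placed mural and mesenchymal markers summed to 1553 and 3023 normalized reads in the deeper and shallower fetal liver libraries, against 1032 and 672 in the deeper and shallower adult bone marrow libraries. Acta2, the smooth muscle actin, had 267 and 1578 in fetal liver, against 8.78 and 34.3 in adult bone marrow, and Cspg4, the NG2 proteoglycan of pericytes, had 404 and 420 in fetal liver, against 853 and 437 in adult bone marrow. Of 7 hepatoblast markers, 3 (Afp, Alb and Apoa2) were called higher, against the same 4.12% over all features, with sums of 684 and 668 in fetal liver, against 111 and 62.9 in adult bone marrow. Afp (alpha-fetoprotein) had 272 in fetal liver and 10.6 in adult bone marrow and Alb (albumin) 244 in fetal liver and 11.5 in adult bone marrow, as means in the authors' deposited table. The ratio of Afp was 25.8 in the authors' deposited table, 95.3 without the deeper and 14.9 without the shallower adult bone marrow library. Of the 6 placed hepatoblast markers, 4 had both fetal liver libraries above both adult bone marrow libraries and 0 had both below. The groups overlapped for Krt18, with a ratio of 2.09 in the authors' deposited table, and for Hnf4a, with one of 0.735. Chondrocyte and osteoblast markers, of the tissues in which Itm2a was first described, had 0 of 8 called, with sums of 168 and 333 in fetal liver, against 381 and 2502 in adult bone marrow. The bone matrix genes Ibsp and Bglap carried most of the last sum, with 1195 and 1067 normalized reads in the shallower adult bone marrow library, against 96.6 and 81.7 in the deeper one. Ibsp and Bglap were also higher in the shallower fetal liver library, at 139 and 93.9, against 23.1 and 4.55 in the deeper one. The other placed markers of this list differed less between the bone marrow libraries. Of these, named after their values were seen, Acan had 38.5 in the deeper and 34.3 in the shallower, and Sox9 9.46 and 22.9. The 7 placed markers of this list had a median log2 ratio of -1.46 (group means + 1). Both fetal liver libraries lay below both adult bone marrow libraries in 3 of them and above in 1. Limma called 3 of the 7 lower and 0 higher, where it called 2.87% of its features lower.

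Markers of endothelial and blood cells had lower sums than the mural and mesenchymal markers in every library. In the deeper adult bone marrow library this rests on 1 gene, since Cspg4 alone had 853 of the mural and mesenchymal sum of 1032. In the shallower adult bone marrow library Cspg4 had 437 of 672. The rest of that sum was still above each endothelial or blood cell sum of the shallower library. Of 7 endothelial markers, 0 were called higher and 1 (Tie1) lower, with sums of 276 and 199 normalized reads in the deeper and shallower fetal liver libraries, against 219 and 157 in the deeper and shallower adult bone marrow libraries. Emcn had 136 and 63.0 in fetal liver, against 24.3 and 25.7 in adult bone marrow, and Eng had 63.3 and 46.4 in fetal liver, against 27.0 and 28.6 in adult bone marrow. Pecam1, named after its values were seen, had means of 8.82 in fetal liver and 29.1 in adult bone marrow in the authors' deposited table. The median log2 ratio of the 6 placed endothelial markers was 0.05, with both fetal liver libraries above both adult bone marrow libraries in 2 markers and below in 2. Of 8 neutrophil and myeloid markers, 0 were called higher and 1 (S100a9) lower, with sums of 75.4 and 70.2 in fetal liver, against 435 and 126 in adult bone marrow. S100a8 had 0.758 and 0 in fetal liver, against 166 and 14.3 in adult bone marrow, and Csf1r 48.1 and 29.7 in fetal liver, against 60.8 and 37.2 in adult bone marrow. The 8 T and B cell markers had 0 called, with sums of 32.6 and 59.5 in fetal liver, against 136 and 77.2 in adult bone marrow. Ptprc, the pan-leukocyte CD45, had means of 16.4 in fetal liver and 24.5 in adult bone marrow and Cd4 of 16.1 in fetal liver and 24.7 in adult bone marrow in the authors' deposited table. Of 6 labelled erythroid markers 0 were called, with sums of 58.7 and 73.7 in fetal liver, against 41.2 and 14.3 in adult bone marrow. Of these, Epor had means of 13.1 in fetal liver and 15.9 in adult bone marrow in the authors' deposited table. Of 7 skeletal myoblast markers 0 were called, with sums of 47.7 and 40.4 in fetal liver, against 93.2 and 85.8 in adult bone marrow. Of these, Pax3 had means of 16.3 in fetal liver and 32.4 in adult bone marrow and Des of 13.5 in fetal liver and 27.9 in adult bone marrow in the authors' deposited table. No placed marker of these 8 lists had 0 reads in both libraries of a group.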

How the data were processed

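RNA of sorted fetal liver cells (2 libraries) and adult bone marrow cells (2 libraries) was sequenced by the authors. The submitters' processing notes name GSNAP, HTSeq, DESeq and mm9, with no versions, and the sources used here give no annotation or filters. The deposited table holds a normalized signal: for each group, the authors' mean of size-scaled reads, per the file headers. The authors' fold in it divides the fetal liver mean by the adult bone marrow mean, and the authors' p-values test the same difference, per the file headers. The log2 fold change column was not used. A feature was called at an authors' adjusted p-value under 0.05, over 35605 tested features.

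The 33465 labels stand in p-value order over 37996 features without gaps. They were placed again by a hidden Markov model that kept their order, used the order of identifiers among ties (with 0.001 as error rate) and scored gene structure (GENCODE M21) against level with LightGBM 4.6.0 (200 rounds, 5 folds, 5 passes). A probability of at least 0.95 placed 19750 of 32282 labels of tested features. On simulated labels, 99.7% of those placed stood at their own feature over 18300 labels, an upper estimate because the pairs came from the placement. Whole reads were recovered by splitting each group mean up to 10000 into reads of 2 libraries, with a single solution for 31919 of 31921 fetal liver and 34525 of 34525 adult bone marrow features. The log2(normalized reads + 1) values of 16501 features with a mean of 10 or more were fitted with limma 3.58.1 (R 4.3.3, trend option, Benjamini-Hochberg adjustment). It was tested on simulated data, where it missed most of the smaller changes and some of the larger ones. Genes that limma did not call may therefore still differ.

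The members and gene lists were chosen with earlier results of these data known. Named genes were all members, in each list the called genes (at most 6) and the 3 uncalled genes of highest mean, the 5 nearest profiles of each member (Euclidean distance) and the 2 markers of highest mean per list. Of these, 2 genes are not reported here. Alternatives were other label placements, pseudocounts, thresholds, filters and libraries left out. Of 52 list genes, 10 could not be placed.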

Additional observations from a re-analysis of the deposited data

How the results depend on the processing

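All 3 Itm2 genes stayed higher in fetal liver under every alternative that kept their placed features. The family was chosen on this contrast, so the shared direction lends it no weight. With the labels as they stand, the ratio was 8.76 for Itm2a, 12.3 for Itm2b and 2.38 for Itm2c. Those are ratios of other features than the ones on which the members were placed. With 10 added to the means the ratio was 1.98 for Itm2c. Leaving out 1 library at a time gave ratios of 53.7 to 216 for Itm2a, 14.2 to 60.03 for Itm2b and 2.28 to 3.37 for Itm2c. With 60 training rounds, a setting chosen after seeing the data, each member had the same feature, with probabilities of 0.959 for Itm2a, 0.738 for Itm2b and 1 for Itm2c. Without the score of the gene itself, also added then, they had the same features. At an adjusted p under 0.01, 964 features were called higher and 9 lower. With p-values adjusted again over means of 10 or more, 1817 were higher and 83 lower, and 10 list genes were higher. Limma called 3172 features higher and 474 lower, and 16 list genes higher. With a library left out, limma called 2254 to 3413 features higher and 196 to 687 lower, and 13 to 18 list genes higher and 0 to 1 lower. Without the deeper adult bone marrow library it called 288 features lower, and without the shallower one 196. A lone library in a group is assumed to vary like the other group. The other 37 planned and 8 added values stayed within 1.5 times, or within the spread between libraries. No paired analysis was possible because the groups share a single replicate number and the libraries carry none. Depth limits Itm2c most, with 4 reads in the shallower adult bone marrow library.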
